A study of Mus musculus with 12 samples.

Results

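Calcium-triggered release of neurotransmitter depends on a shared set of proteins that fill, dock, fuse and recover synaptic vesicles, and 34 mouse genes of that set were followed here in sensory ganglia after a spinal cord injury. The genes were chosen by name, from the SNARE fusion proteins to the synucleins, and all 34 of them were found among the 21753 genes listed in either of the 2 deposited expression tables. At the nerve terminal, SNARE proteins on the vesicle and on the plasma membrane zip together to fuse the membranes, synaptotagmins sense the calcium that triggers this step, and complexins hold the partly assembled complex ready. Other proteins load the vesicle with transmitter, tether and prime it, take used SNARE complexes apart and retrieve the membrane by endocytosis. In dorsal root ganglia the cell bodies of sensory neurons make these transcripts for terminals that lie far away, in the spinal cord and in the brainstem.

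The libraries came from L4-6 dorsal root ganglion neurons, the source of the sensory axons of the sciatic nerve, taken from C57BL/6J mice of 8 weeks at 72 h (3 days) after a spinal cord injury that every group had received. The AAV experiment used adeno-associated virus, given through the sciatic nerve 4 weeks before, that carried transketolase (AAV-TKT) or green fluorescent protein (AAV-GFP). In the ribose experiment, injured mice received 10% ribose (Ribose) or vehicle (Vehicle). Each of the 4 groups held 3 libraries, and no uninjured group is analysed here. Transketolase is an enzyme of the pentose phosphate pathway, which ribose can enter. The serotype, promoter and target cells of the virus, and the number of animals in a library, are not stated in the labels. No source says that replicates are separate animals, so p-values cover only the spread between these libraries, which may be technical.

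Values were FPKM, a fragment count divided by transcript length and by the size of the library. Library totals came to 413635 to 456084 FPKM for AAV and 510551 to 551370 FPKM for ribose. The tables held no read counts. Tkt checked the AAV labels, at 223, 259 and 262 FPKM in AAV-TKT libraries, against 106, 101.7 and 98.1 FPKM in AAV-GFP libraries (limma adjusted p = 0.0054). Pan-neuronal markers were present in every library (16 of 16, summing to 7523 to 8523 FPKM in AAV-TKT, 6516 to 7365 FPKM in AAV-GFP, 7491 to 8208 FPKM in Ribose and 7912 to 8614 FPKM in Vehicle), but the samples were not neurons alone. Satellite glia markers summed to 899 to 1432 FPKM in AAV-TKT and 1285 to 1579 FPKM in AAV-GFP, and to 557 to 1291 FPKM in Ribose and 1008 to 1905 FPKM in Vehicle. Of the 11 neutrophil markers, 11 were lower in AAV-TKT with no overlap, where 7.2% of all genes were (20.2 to 32.8 FPKM in AAV-TKT, 98.3 to 266 FPKM in AAV-GFP), and 11 of 11 Schwann cell, 8 of 8 macrophage and 7 of 7 fibroblast markers tested also had lower values there, as did 10 of 12 satellite glia markers and 6 of 7 red cell markers tested, those 6 with no overlap (the 7 summed to 101.5 to 121 FPKM in AAV-TKT and 141 to 506 FPKM in AAV-GFP). In the ribose experiment, 12 of 12 satellite glia and 9 of 11 Schwann cell markers tested were lower in Ribose (median log2 change -0.71 and -0.27). Of the neutrophil, macrophage and red cell markers tested, 6 of 9, 2 of 3 and 3 of 5 were lower there. By contrast 5 of 7 fibroblast markers were higher, where 44.8% of all genes were above 0. None of the marker genes listed was at 0 in all libraries of a table. In such bulk samples, fewer cells of a type and less RNA per cell cannot be told apart.

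Some libraries stood apart from the others of their group. Vehicle replicate 2 and Ribose replicate 2 differed from the rest of the ribose table in their neuron markers: markers of large-diameter neurons summed to 1176, 804 and 1296 FPKM in Ribose replicates 1, 2 and 3, against 1277, 618 and 1592 FPKM in Vehicle replicates 1, 2 and 3. Markers of non-peptidergic nociceptors, small pain and itch neurons, went the other way, at 580.5, 779.5 and 445 FPKM in Ribose and 558, 1023 and 468 FPKM in Vehicle. Peptidergic nociceptor markers were also highest in replicate 2 of both groups. They summed to 2091, 2711 and 1926 FPKM in Ribose and 1860, 2484 and 1719 FPKM in Vehicle. Satellite glia markers were lowest in replicate 2 of both groups, at 1291, 557 and 1103 FPKM in Ribose and 1520, 1008 and 1905 FPKM in Vehicle. Neutrophil markers set these libraries apart, at 117, 13.2 and 78.6 FPKM in Ribose and 29.3, 167 and 33.1 FPKM in Vehicle. Red cell and macrophage sums were likewise lowest in Ribose replicate 2 and highest in Vehicle replicate 2. In the AAV table, AAV-GFP replicate 2 stood apart: the noncoding RNA Rn7s2 took 6.32% of its FPKM total, against 10.9% to 12.6% in the other 5 AAV libraries. Without this library 40 genes of the AAV table passed the test, against 2 with it. Counts over the 34 genes and the paralog ratios whose AAV groups do not overlap are given with and without these libraries, and values of replicates are listed in the order 1, 2 and 3.

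All 34 genes were well expressed. Their mean levels lay between the 58.9th and the 99.9th percentile of the genes of the AAV table that averaged at least 1 FPKM (median 95.01), and from the 62.4th percentile upward in the ribose table (median 95.8). Levels of 17 genes averaged over 100 FPKM in AAV-GFP, as did 18 genes in Vehicle. The most abundant transcript was Sncg, gamma-synuclein, at 959 ± 151 FPKM in AAV-TKT and 1002 ± 79.4 FPKM in AAV-GFP (SD, n = 3 each). Snap25, the plasma membrane SNARE that botulinum toxin A cuts, came next at 729 ± 38.9 FPKM in AAV-TKT and 630.1 ± 74.2 FPKM in AAV-GFP. Behind them in the AAV-GFP libraries stood Cplx1 at 398 ± 37.1 FPKM, Syt11 at 368 ± 13.1 FPKM and Syp at 311 ± 12.2 FPKM. Of these 5 neighbours in the order, the libraries of Cplx1 and Syt11 overlapped and the others did not. The least abundant were Sv2a at 13.5 ± 1.09 FPKM, Stx1a at 14.2 ± 0.630 FPKM, Rims1 at 21.1 ± 2.52 FPKM and Rims2 at 21.3 ± 1.44 FPKM, and within each of these pairs the libraries overlapped. The order of the 34 levels was nearly the same in Vehicle as in AAV-GFP (Spearman's rho 0.988 across 34 genes, a description across genes that share annotation and lengths).

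**Figure D1:**
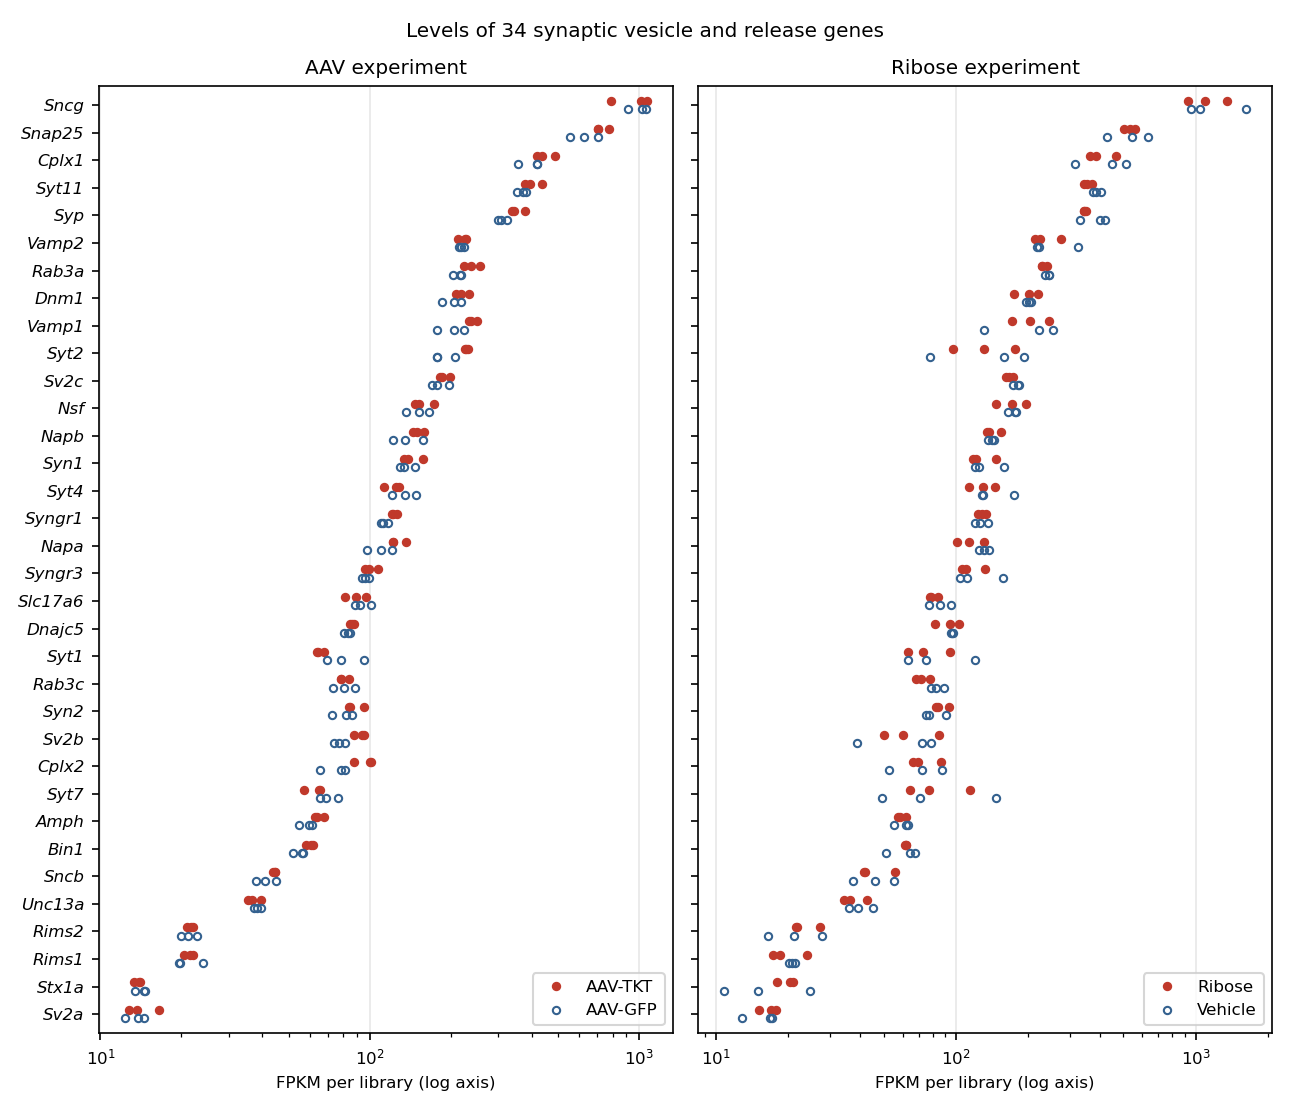
FPKM of the 34 genes in every library, on log axes, with the AAV experiment on the left (AAV-TKT filled, AAV-GFP open) and the ribose experiment on the right (Ribose filled, Vehicle open); each point is a library. The levels span Sncg at about 1002 FPKM to Sv2a at 13.5 FPKM in AAV-GFP, and for most genes the points of the groups overlap.

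The AAV experiment asked what added transketolase does to the ganglia after the injury. None of the 34 genes passed the test (limma on log2(FPKM + 1) over 13178 genes, adjusted p under 0.05; 0 of 34, lowest adjusted p = 0.378), where 0.0152% of all genes passed. Without adjustment, 6 of 34 had a limma p under 0.05, against 10.6% of all genes. The values of 26 genes were higher in AAV-TKT and those of 8 lower, with a median log2 change of 0.09 (0.01 over all genes tested, of which 53.7% were above 0). The libraries of the groups did not overlap for 10 genes higher in AAV-TKT, where 11.3% of all genes behaved so, and for 1 gene lower, where 7.2% did. The 10 were Vamp1, Syt2, Cplx2, Syp, Sv2b, Syngr1, Rab3a, Napa, Amph and Bin1, and the single lower gene was Syt1. Among genes averaging at least 5 FPKM, 60.2% were above 0, and 14.0% did not overlap on the higher side and 5.33% on the lower. Of the 16 pan-neuronal markers, 6 did not overlap on the higher side and 0 on the lower.

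These counts depended on the scale and on the libraries. When each library was set to the same total, 18 genes were higher and 16 lower, where 36.7% of all genes were above 0. The groups did not overlap for 4 and 2 of these genes (5.08% and 11.6% of all genes). After quantile normalization 19 genes were higher and 15 lower, 55.9% above 0, where 55.0% of all genes were. The median change was then 0.036 for the 34 genes and 0.017 for all genes. Median-of-ratios scaling gave 23 higher and 11 lower, where 47.8% of all genes were above 0. Scaled to the pan-neuronal markers, which were themselves higher in AAV-TKT (14 of 16), 11 genes were higher and 23 lower. On this scale 22.5% of all genes were above 0. The groups did not overlap for 2 and 7 of the 34 genes (1.83% and 21.5% of all genes). That scaling moved the median of all genes to -0.11, and the median of the 34 genes to -0.04. Without AAV-GFP replicate 2, 17 of the 34 genes did not overlap on the higher side, where 19.6% of all genes did so, and 2 on the lower, where 12.5% did, and 0 of 34 passed the test. The lower count was 2 without AAV-TKT replicate 1 or AAV-TKT replicate 3 (12.5% and 11.7% of all genes), and 3 without AAV-GFP replicate 1 (11.7% of all genes).

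The ribose experiment asked the same of the sugar. None of the 34 genes passed (limma over 13804 genes, 0 of 34, lowest adjusted p = 0.9998), where 0.00724% of all genes passed, and 0 of 34 had an unadjusted limma p under 0.05, against 4.79% of all genes. Values were higher in Ribose for 13 genes and lower for 21, with a median log2 change of -0.04 (-0.02 over all genes tested, of which 44.8% were above 0). The groups did not overlap for Syt11 and Rab3c, both lower in Ribose, 2 of 34 where 5.35% of all genes behaved so; no gene was higher without overlap, where 4.28% of all genes were. Without both replicates numbered 2, values were higher for 9 genes and lower for 25, where 46.8% of all genes were above 0. The groups then did not overlap for 3 higher and 7 lower genes. Beside these stand 17.0% and 20.6% of all genes, since groups of fewer libraries overlap less often. Leaving out single libraries gave 4 lower genes without Ribose replicate 2 or Vehicle replicate 1 (12.9% and 9.78% of all genes), 5 without Ribose replicate 3 or Vehicle replicate 2 (9.59% and 12.6%), and 3 higher genes without Vehicle replicate 2 (10.1%). Quantile normalization turned the balance to 23 higher and 11 lower, where 46.6% of all genes were above 0.

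**Figure D2:**
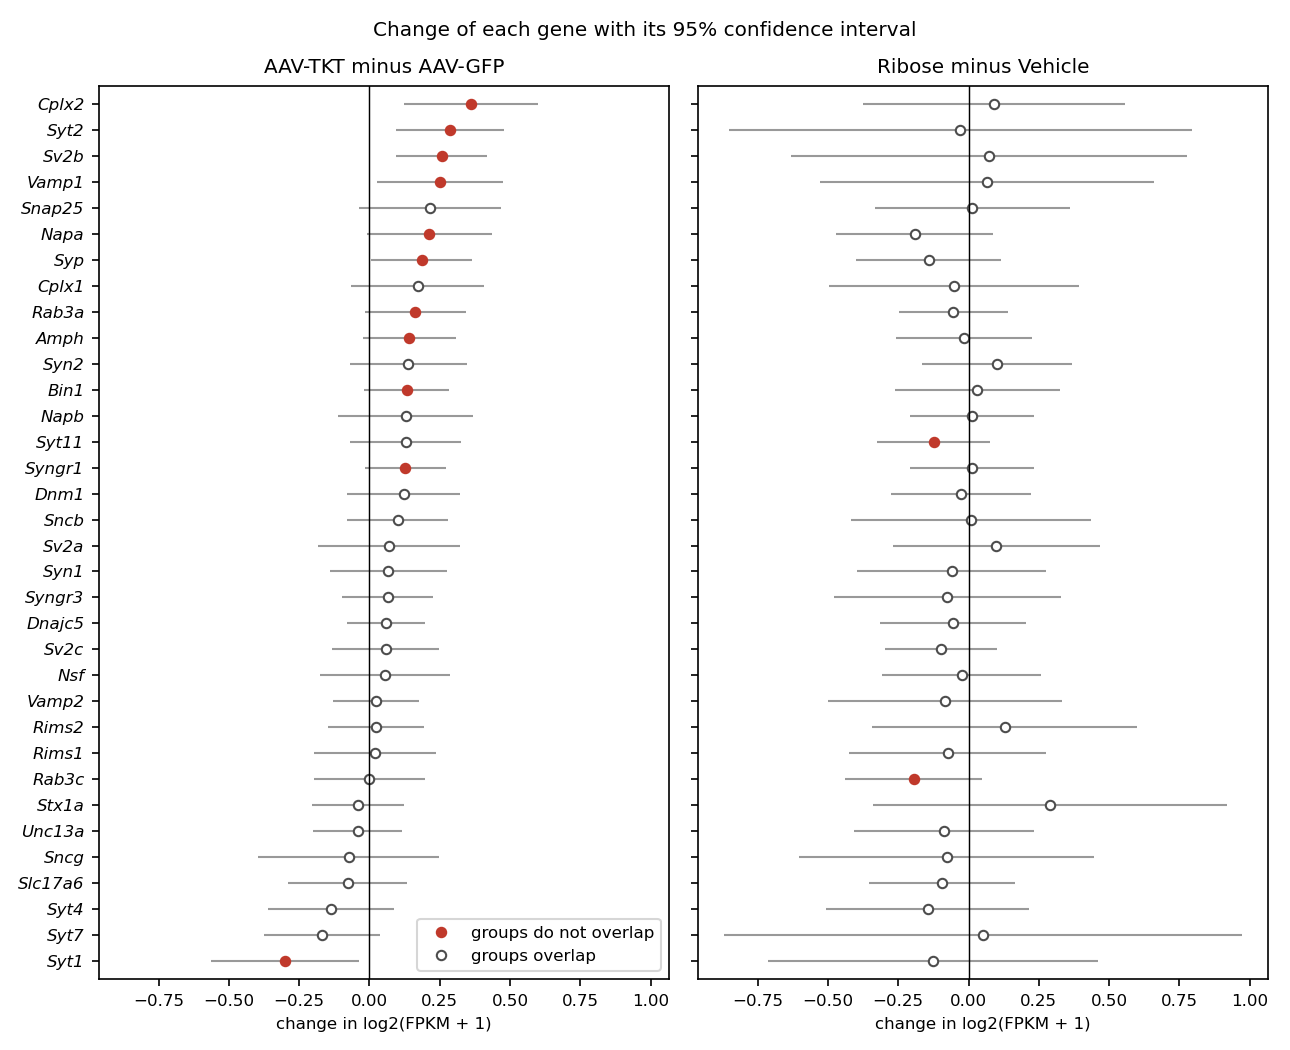
Change in log2(FPKM + 1) of each gene with its 95% confidence interval from limma, AAV-TKT minus AAV-GFP on the left and Ribose minus Vehicle on the right; filled points mark genes whose groups do not overlap. Most points of the AAV panel lie right of 0 with Cplx2 at 0.36 and Syt1 at -0.30, and all 34 intervals of the ribose panel include 0.

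The SNARE core was represented by Snap25 and Stx1a, which sit on the plasma membrane, and by the vesicle proteins Vamp1 and Vamp2 (synaptobrevins), close relatives that can each complete the complex. Vamp1 had 249.9, 239 and 233 FPKM in AAV-TKT libraries, against 206, 225 and 178 FPKM in AAV-GFP libraries. The lowest AAV-TKT library exceeded the highest AAV-GFP library, and the log2 change was 0.25 (SE 0.0961, limma adjusted p = 0.444). Vamp2 had 226, 229 and 214 FPKM in AAV-TKT, against 219, 224 and 214 FPKM in AAV-GFP, so the groups overlapped throughout, with a log2 change of 0.02 that turned to -0.05 when library totals were set equal. The log2 change of Snap25 was 0.22 and that of Stx1a -0.04, both with overlapping groups.

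With ribose, the synaptobrevins differed more between replicates than between treatments. Vamp1 had 203, 171 and 245 FPKM in Ribose, against 221, 131 and 255 FPKM in Vehicle. Vamp2 had 225, 276 and 214 FPKM in Ribose, against 223, 324 and 218 FPKM in Vehicle. Replicate 2 was thus the lowest library of both groups for Vamp1 and the highest of both for Vamp2. The log2 change of Vamp1 was 0.07 (limma 95% interval -0.53 to 0.66), but -0.07 without Ribose replicate 3 and -0.22 without Vehicle replicate 2. That of Vamp2 was -0.08 (-0.50 to 0.33), and 0.10 without Vehicle replicate 2. Stx1a, at 18.0, 20.3 and 20.9 FPKM in Ribose, against 15.02, 24.6 and 10.8 FPKM in Vehicle, had the largest ribose difference of the 34 genes, 0.29, but its Vehicle libraries enclosed all 3 Ribose libraries (limma adjusted p = 0.9998). The difference was 0.59 without Vehicle replicate 2 and 0.03 without Vehicle replicate 3. Snap25 differed by 0.01.

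Among the calcium sensors, Syt1 and Syt2 are the closely related synaptotagmins that trigger fast, synchronous release. Syt2 had 232, 226 and 229 FPKM in AAV-TKT, against 208, 178 and 178 FPKM in AAV-GFP. All AAV-TKT libraries were higher than all AAV-GFP libraries, and the log2 change was 0.29 (SE 0.0823, limma adjusted p = 0.378). Syt1 had 63.8, 67.5 and 64.5 FPKM in AAV-TKT, against 69.7, 95.4 and 78.5 FPKM in AAV-GFP. Here all AAV-TKT libraries were the lower ones, AAV-GFP replicate 2 stood highest, and the log2 change was -0.30 (SE 0.113, limma adjusted p = 0.436), or -0.18 without AAV-GFP replicate 2. Neither difference passed the test.

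The ratio of one paralog to the other does not change when all values of a library are divided by the same factor. Syt2 FPKM divided by Syt1 FPKM was 3.64, 3.36 and 3.55 in AAV-TKT, against 2.99, 1.86 and 2.26 in AAV-GFP. The log2 ratio averaged 1.81 ± 0.0595 in AAV-TKT and 1.22 ± 0.343 in AAV-GFP (SD, n = 3 each), a difference of 0.59, or 0.43 without AAV-GFP replicate 2 and 0.47 without both replicates numbered 2. The two-sided exact permutation test gave p = 0.1, its minimum for groups of 3 libraries, and 0.4 after Benjamini-Hochberg adjustment over the 12 ratios compared. The same ratio was 1.79, 1.04 and 2.78 in Ribose, against 2.11, 0.651 and 3.06 in Vehicle. Replicate 2 was lowest in both groups, and the difference between the means of the log2 ratio was 0.10 (exact permutation p = 1), but -0.56 without Vehicle replicate 2 and -0.19 without both replicates numbered 2.

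Syt2 itself had 131, 97.7 and 176 FPKM in Ribose, against 158, 77.9 and 193 FPKM in Vehicle, and Syt1 had 72.9, 94.3 and 63.3 FPKM in Ribose, against 75.1, 119.7 and 63.1 FPKM in Vehicle. Groups overlapped for both, and replicate 2 was the extreme library of each group. The log2 change of Syt2 was -0.03 (limma 95% interval -0.85 to 0.80), with 0.18 without Ribose replicate 2, 0.09 without Vehicle replicate 1 and 0.24 without Vehicle replicate 3. That of Syt1 was -0.13 (-0.715 to 0.46), with 0.0018 without Ribose replicate 3 and 0.14 without Vehicle replicate 2.

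The promoters of Syt2 and Syt1 are shown for comparison, since in AAV-TKT Syt2 was higher and Syt1 lower, each without overlap. The sequences are the 250 bases before a RefSeq transcript start on GRCm38.p6, 5′ to 3′ on the gene's strand. Each is from 1 of the 2 windows listed for its gene. In GENCODE M21 on GRCm38, Syt2 (ENSMUSG00000026452) spans chr1:134646677-134762593 on the plus strand and Syt1 (ENSMUSG00000035864) chr10:108497650-109010982 on the minus strand. The Syt2 window is chr1:134646362-134646611 (plus strand) and the Syt1 window chr10:109010976-109011225 (minus strand). Capitals mark a match to the recognition site of estrogen-related receptors, TCAAGGTCA, which lies on the opposite strand in Syt2 and starts 167 bases before the transcript start.
Syt2: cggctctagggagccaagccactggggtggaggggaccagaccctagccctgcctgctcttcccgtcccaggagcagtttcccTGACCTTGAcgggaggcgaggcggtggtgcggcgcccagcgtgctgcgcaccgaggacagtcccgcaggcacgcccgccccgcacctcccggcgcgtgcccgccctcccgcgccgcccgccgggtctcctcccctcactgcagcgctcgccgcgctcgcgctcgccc
Syt1: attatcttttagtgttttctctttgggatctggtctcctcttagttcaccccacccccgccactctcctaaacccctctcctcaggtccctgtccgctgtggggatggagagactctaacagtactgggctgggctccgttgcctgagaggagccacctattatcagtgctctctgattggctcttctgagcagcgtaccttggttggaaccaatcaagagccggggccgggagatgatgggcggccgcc
Syt2 was the only gene of the 26 matched in the promoter table with this motif in a window of 300 bases (250 before to 50 after a start, both strands), against 0.423% of all 32851 promoters. Neither Syt1 window held this motif, a CRE or an RE1 part (motifs described with Syn1). A match describes these letters and is not evidence of a bound factor.

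The other synaptotagmins and the complexins did not share a direction in the AAV experiment. Cplx2, a complexin that binds the assembled SNARE complex, had 101.6, 100.1 and 87.6 FPKM in AAV-TKT, against 81.1, 78.2 and 65.5 FPKM in AAV-GFP. Its groups did not overlap, and its log2 change of 0.36 was the largest of the 34 genes (SE 0.102, limma adjusted p = 0.378). Its relative Cplx1 differed by 0.17 and Syt11, a synaptotagmin without calcium binding, by 0.13. Syt4, which also lacks calcium-triggered activity in mammals, differed by -0.14, and Syt7, the high-affinity sensor of slower release, by -0.17. Part of the exonic bases of Syt4 (14.5%) and Syt7 (5.13%) is shared with a gene on the other strand, and no source states whether counting used strand.

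Syt11 had 341, 353 and 369 FPKM in Ribose, against 383, 374 and 402 FPKM in Vehicle. Each Ribose library was below each Vehicle library, by a log2 change of -0.12 (SE 0.0855, limma adjusted p = 0.9998). Syt7 varied most between replicates, with 115 FPKM in Ribose replicate 2 and 147 FPKM in Vehicle replicate 2, against 49.3 to 77.2 FPKM in the other 4 libraries. The log2 changes of Syt4, Syt7, Cplx1 and Cplx2 were -0.15, 0.05, -0.05 and 0.09.

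The vesicle membrane proteins gave 8 of 9 values above 0 in the AAV experiment (median 0.07) and 4 of 9 in the ribose experiment (median -0.06). Sv2b, a glycoprotein of the SV2 family that also serves as an entry receptor for botulinum toxin A, had 95.6, 94.0 and 87.7 FPKM in AAV-TKT, against 81.2, 76.8 and 73.8 FPKM in AAV-GFP. The groups did not overlap, and with a log2 change of 0.26 (SE 0.0690, limma adjusted p = 0.378) Sv2b had the smallest unadjusted p of the 34 genes. Its relative Sv2c had 199, 185 and 182 FPKM in AAV-TKT, against 177, 198 and 171 FPKM in AAV-GFP, overlapping, at 0.06 (-0.01 with equal totals). Sv2a, the binding site of levetiracetam, had 16.5, 12.8 and 13.7 FPKM in AAV-TKT, against 12.4, 14.5 and 13.8 FPKM in AAV-GFP, at 0.07, or -0.03 without AAV-TKT replicate 1. The ratio of Sv2b to Sv2c was 0.479, 0.507 and 0.481 in AAV-TKT, against 0.458, 0.388 and 0.432 in AAV-GFP, without overlap (difference of the log2 ratio 0.20, exact permutation p = 0.1, adjusted p = 0.4). The difference was 0.14 without AAV-GFP replicate 2 and 0.11 without both replicates numbered 2. In the ribose experiment the log2 ratio of Sv2b to Sv2c differed by 0.17 (exact permutation p = 0.7), and by -0.12 without Vehicle replicate 2. Ratios to Sv2a overlapped between the AAV groups, with differences of 0.18 for Sv2b and -0.02 for Sv2c (exact permutation p = 0.3 and 0.8).

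Synaptophysin (Syp), a major protein of the vesicle membrane, had 378, 346 and 339 FPKM in AAV-TKT, against 324, 300.0 and 309 FPKM in AAV-GFP. Its groups did not overlap, at a log2 change of 0.19 (SE 0.0769, limma adjusted p = 0.468); 16.8% of its exonic bases is shared with a predicted gene on the other strand. The log2 changes in AAV-TKT were 0.07 for Syn1 and 0.14 for Syn2, synapsins that hold vesicles in the reserve pool, 0.13 for Syngr1 and 0.06 for Syngr3, relatives of synaptophysin, and -0.08 for Slc17a6, the vesicular glutamate transporter VGLUT2.

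In the ribose table, Syp had 348, 343 and 343 FPKM in Ribose, against 418, 329.7 and 398 FPKM in Vehicle, so that Vehicle replicate 2 lay below all Ribose libraries and the other Vehicle libraries above them (log2 change -0.14, limma adjusted p = 0.9998). The change was -0.24 without Vehicle replicate 2 and -0.07 without Vehicle replicate 1. Sv2c had 162, 167 and 172 FPKM in Ribose, against 181, 172 and 183 FPKM in Vehicle, with Ribose replicate 3 level with Vehicle replicate 2 and a log2 change of -0.10. Sv2b had 60.1, 50.01 and 85.2 FPKM in Ribose, against 72.0, 38.5 and 79.0 FPKM in Vehicle, with replicate 2 lowest in both groups. Its log2 change was 0.07, but -0.14 without Ribose replicate 3 and -0.24 without Vehicle replicate 2. Sv2a had 15.1, 17.8 and 16.9 FPKM in Ribose, against 16.8, 17.0 and 12.8 FPKM in Vehicle (log2 change 0.10, or -0.03 without Vehicle replicate 3). The log2 changes of Syn1, Syn2, Syngr1, Syngr3 and Slc17a6 were -0.06, 0.10, 0.01, -0.08 and -0.09.

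Synapsin I is a textbook neuron-restricted gene, and its promoter is shown for the rarer motifs it holds. The 250 bases before the RefSeq start on GRCm38.p6 are chrX:20920919-20921168 (minus strand), with capitals for the left part of the REST repressor's RE1 element, TTCAGCACC, starting 232 bases before the start, and for the palindromic cyclic AMP response element (CRE), TGACGTCA, starting 159 bases before it.
Syn1: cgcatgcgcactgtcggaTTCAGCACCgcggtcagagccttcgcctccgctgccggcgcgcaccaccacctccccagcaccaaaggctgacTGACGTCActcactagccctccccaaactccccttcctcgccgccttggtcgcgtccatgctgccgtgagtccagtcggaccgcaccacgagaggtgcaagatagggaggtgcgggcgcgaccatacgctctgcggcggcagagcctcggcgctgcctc
Across the 26 genes with a promoter entry (34 windows), the CRE was found for Syn1 and Napa (1.79% of all promoters), and the left part of RE1 for Syn1 and Unc13a (0.371%). Unc13a also held the right part of the RE1 element (0.521%). The Sp1 box GGGCGG was in 22 of 34 windows, 64.7%, against 35.7% of all promoters. The NRF1 motif and the serum response element were in none, letters that 0.971% and 0.0639% of all promoters hold. Of the commoner motifs, the E-box CAGCTG was in 8 windows (23.5%, against 16.3% of all promoters), CCAAT in 8 (23.5%, against 37.4%), RUNX TGTGGT in 4 (11.8%, against 16.8%), the TATA box TATAAA in 2 (5.88%, against 13.6%) and the AP-1 element TGACTCA in 1 (2.94%, against 5.2%). The short CRE form TGACG, which overlaps every full CRE, was in 10 (29.4%, against 20.8%).

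Docking and priming rest on the vesicle GTPases Rab3a and Rab3c, the active zone scaffolds Rims1 and Rims2 that bind them, and Unc13a, which opens syntaxin for SNARE assembly. Rab3a averaged 239 ± 16.6 FPKM in AAV-TKT and 213 ± 7.68 FPKM in AAV-GFP (SD, n = 3 each), without overlap, at a log2 change of 0.16 (limma adjusted p = 0.498). The other 4 stayed within 0.05 of 0 on the log2 scale, at -0.0013 for Rab3c, 0.02 for both Rims1 and Rims2, and -0.04 for Unc13a. Rab3c was the gene with the smallest unadjusted p in the ribose experiment. It had 71.6, 78.4 and 68.5 FPKM in Ribose, against 78.6, 89.3 and 82.6 FPKM in Vehicle. Ribose libraries were all below Vehicle libraries, by a narrow gap, and the log2 change was -0.20 (SE 0.103, limma adjusted p = 0.9998). Rab3a, Rims1, Rims2 and Unc13a differed by -0.05, -0.07, 0.13 and -0.09.

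After fusion, alpha-SNAP and beta-SNAP (Napa and Napb) recruit the ATPase Nsf to pull the SNARE complex apart, and the chaperone cysteine string protein (Dnajc5) keeps SNAP-25 folded. Napa averaged 127 ± 8.35 FPKM in AAV-TKT and 109.8 ± 11.7 FPKM in AAV-GFP (SD, n = 3 each), without overlap, at a log2 change of 0.21 (limma adjusted p = 0.479). Napb, Nsf and Dnajc5 differed by 0.13, 0.06 and 0.06. In the ribose experiment Napa had 113, 131 and 100.97 FPKM in Ribose, against 131, 138 and 125 FPKM in Vehicle. Ribose replicate 2 reached the range of Vehicle and the other Ribose libraries lay below it, at a log2 change of -0.19 (SE 0.119, limma adjusted p = 0.9998), or -0.29 without Ribose replicate 2 and -0.10 without Ribose replicate 3. Napb, Nsf and Dnajc5 differed by 0.01, -0.02 and -0.05.

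The endocytosis genes code for dynamin 1 (Dnm1), the GTPase that pinches vesicles off the membrane, and for the membrane-bending proteins amphiphysin (Amph) and Bin1. In AAV-TKT their log2 changes were 0.12, 0.14 and 0.13, and Amph and Bin1 did not overlap between groups. Amph averaged 64.6 ± 2.86 FPKM in AAV-TKT and 58.5 ± 3.27 FPKM in AAV-GFP, and Bin1 60.2 ± 1.68 FPKM in AAV-TKT and 54.9 ± 2.56 FPKM in AAV-GFP (SD, n = 3 each). In Ribose the changes were -0.03, -0.02 and 0.03.

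Beta- and gamma-synuclein (Sncb and Sncg) are small presynaptic proteins, of which Sncg is known for its high level in sensory neurons. Sncg had 788, 1073 and 1016 FPKM in AAV-TKT, against 1028, 1066 and 914 FPKM in AAV-GFP, overlapping, with AAV-TKT replicate 1 as the low library. Its log2 change was -0.07, or 0.06 without that library. Sncb had 44.4, 43.6 and 44.6 FPKM in AAV-TKT, against 45.1, 40.9 and 37.8 FPKM in AAV-GFP, at 0.10 (-0.03 when scaled to the pan-neuronal markers). Groups overlapped for both genes and for the ratio of Sncb to Sncg (exact permutation p = 0.4).

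The ribose table gave Sncg 1098, 1355 and 930.5 FPKM in Ribose, against 1043, 1621 and 961 FPKM in Vehicle. Replicate 2 was the highest library in both groups. The log2 change was -0.08, but 0.05 without Ribose replicate 3 and 0.15 without Vehicle replicate 2. Sncb had 41.4, 41.7 and 55.7 FPKM in Ribose, against 46.0, 37.2 and 55.1 FPKM in Vehicle, with replicate 3 highest in both groups. Its log2 change was 0.0087, and -0.13 without either Ribose replicate 3 or Vehicle replicate 2.

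The libraries numbered 2 of the ribose table shared a pattern across these genes. Ribose replicate 2 and Vehicle replicate 2 were both the highest library of their group for 15 of the 34 genes and both the lowest for 8, together 67.6% of the genes, against 40.7% of all 13804 genes. Vehicle replicate 2 exceeded the mean of the other Vehicle libraries by 1.30 on the log2 scale for Syt7, 0.89 for Stx1a, 0.79 for Syt1, 0.69 for Sncg and 0.55 for Vamp2. Its difference from them was -1.16 for Syt2, -0.95 for Sv2b, -0.85 for Vamp1, -0.60 for Cplx1 and -0.59 for Cplx2. These differences are larger than any difference between Ribose and Vehicle in the set over all libraries. Without Vehicle replicate 2, the difference between Ribose and Vehicle changed sign for 11 of the 34 genes, and without Ribose replicate 2 for 6. Signs also changed for 8 genes without Ribose replicate 3 and 7 without Vehicle replicate 3. They changed for 5 without Vehicle replicate 1 and 4 without Ribose replicate 1. In the AAV table, leaving out AAV-GFP replicate 2 changed the sign of 1 gene, and AAV-TKT replicate 2 of 4. Without AAV-TKT replicate 1 or AAV-GFP replicate 1 it was 3, without AAV-GFP replicate 3 it was 2, and without AAV-TKT replicate 3 it was 0. The marker lists of large-diameter neurons and of both nociceptor types moved in Vehicle replicate 2 and Ribose replicate 2, with the sums given above. Some lists of non-neuronal cells differed there too. Their part in these differences was not tested.

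**Figure D3:**
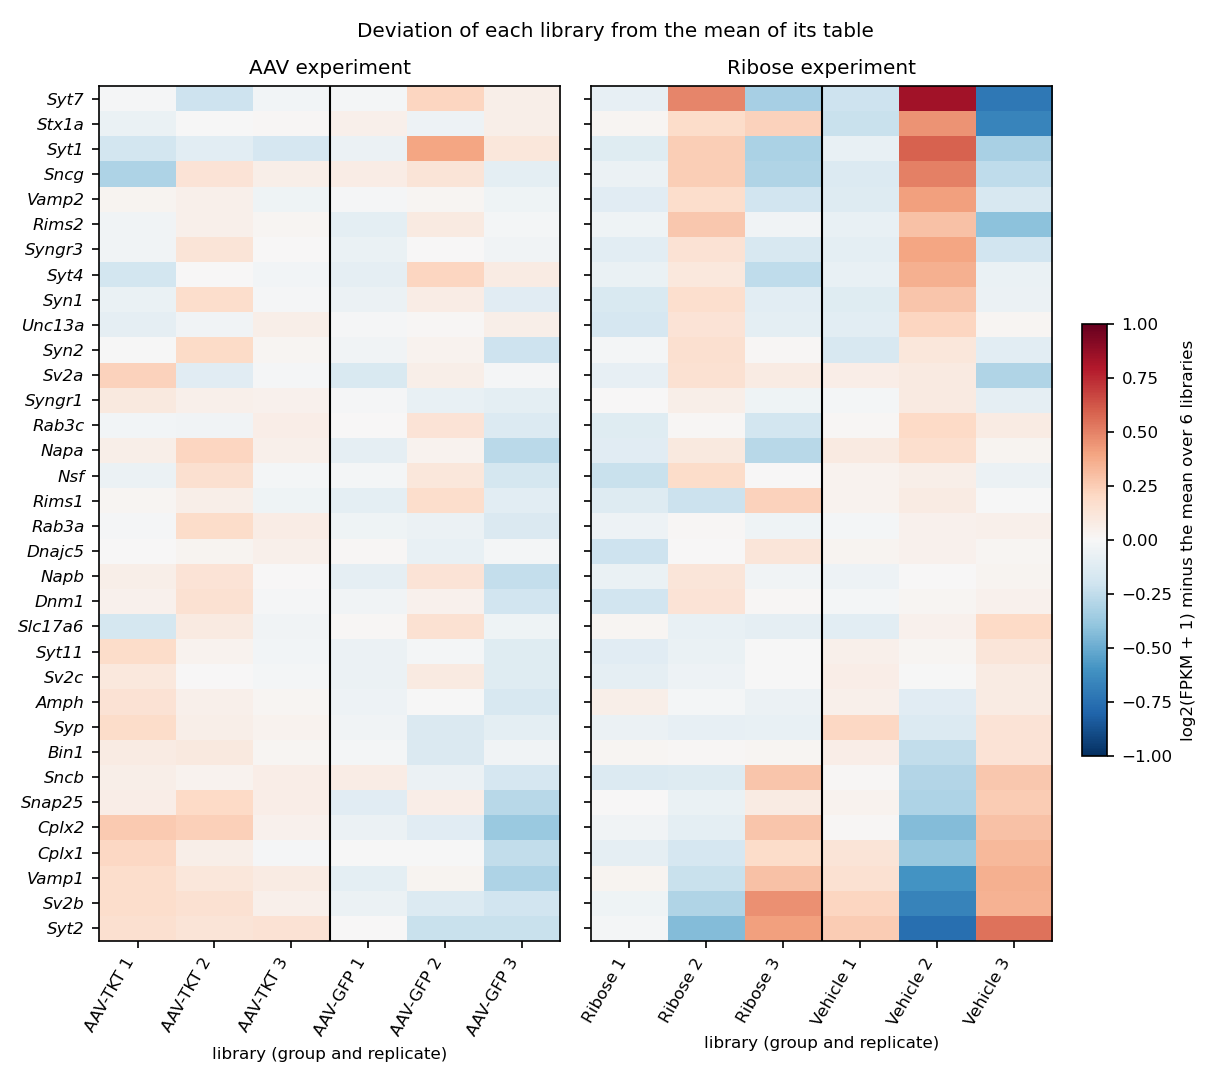
Deviation of every library from the mean of its table in log2(FPKM + 1), genes ordered by how far Vehicle replicate 2 lay from the other Vehicle libraries, for AAV-TKT and AAV-GFP on the left and Ribose and Vehicle on the right. Vehicle replicate 2 and, more weakly, Ribose replicate 2 show the same gradient, with Syt7 high and Syt2 low.

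In the AAV experiment too, neuron markers differed beside the paralogs. Of the 18 markers of large-diameter neurons, 17 had a value above 0 (median log2 change 0.18), summing to 1621 to 1778 FPKM in AAV-TKT and 1312 to 1489 FPKM in AAV-GFP. Of the 16 measured markers of non-peptidergic nociceptors, 0 had a value above 0 (median -0.30), summing to 417 to 432 FPKM in AAV-TKT and 449 to 535 FPKM in AAV-GFP. Of the 10 markers of peptidergic nociceptors, 6 had a value above 0 and 4 below (median 0.03). They summed to 1806 to 2663 FPKM in AAV-TKT and 1989 to 2092 FPKM in AAV-GFP. None of the markers of these 3 lists passed the limma test. At an unadjusted limma p under 0.05 were 6 of 18, 7 of 16 and 1 of 10, against 10.6% of all genes. The part of these markers in the differences of Syt2, Syt1, Vamp1 and Sv2b was not tested. The ratio of Vamp1 to Vamp2 was 1.11, 1.04 and 1.09 in AAV-TKT, against 0.939, 1.01 and 0.832 in AAV-GFP. All AAV-TKT values were higher, by 0.23 on the log2 scale (exact permutation p = 0.1, adjusted p = 0.4), or 0.29 without AAV-GFP replicate 2 and 0.31 without both replicates numbered 2. In the ribose experiment it was 0.902, 0.620 and 1.15 in Ribose, against 0.992, 0.406 and 1.17 in Vehicle, by 0.15 with overlap (exact permutation p = 0.9), by -0.32 without Vehicle replicate 2 and by -0.08 without both replicates numbered 2.

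**Figure D4:**
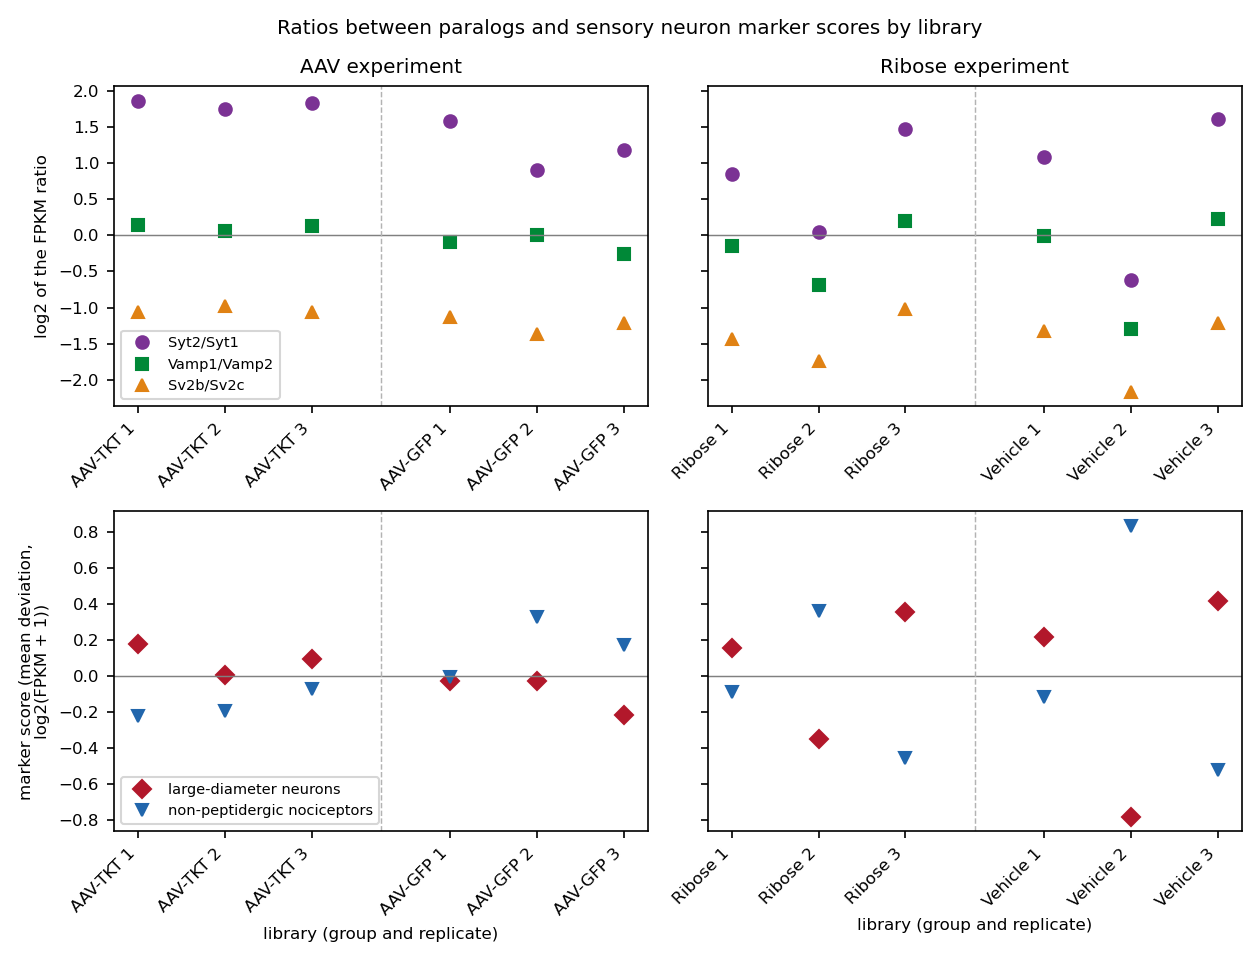
Upper panels show the log2 FPKM ratios Syt2/Syt1, Vamp1/Vamp2 and Sv2b/Sv2c in every library, and lower panels the mean deviation of the marker lists in log2(FPKM + 1), for AAV-TKT and AAV-GFP on the left and Ribose and Vehicle on the right. The 3 ratios drawn are those whose AAV groups do not overlap, with the AAV-TKT libraries above the AAV-GFP libraries. The AAV groups of the ratios not drawn (Sv2b/Sv2a, Sv2c/Sv2a and Sncb/Sncg) overlapped. In the ribose experiment replicate 2 is lowest in both groups for all 3 ratios drawn.

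Other genes of the pathway were counted from wider lists. Of 39 other genes of the release machinery, 34 could be tested in the AAV table, and 21 had values higher in AAV-TKT and 13 lower (median 0.04), with 0 passing limma and 7 of 34 at an unadjusted p under 0.05 (0.0152% and 10.6% of all genes). The 3 with the smallest p were Syt3, a synaptotagmin, at 0.32, Rims3, a short RIM, at 0.24, and Cadps2, a priming factor of dense-core vesicles, at -0.38 (limma adjusted p = 0.378 each). Of 34 other genes of vesicle membrane and endocytosis, 31 could be tested, with 22 higher in AAV-TKT and 9 lower (median 0.07), again 0 passing and 3 of 31 at an unadjusted p under 0.05, beside the same shares of all genes. The 3 with the smallest p were Slc17a7 (VGLUT1), which is also in the large-diameter marker list, at 0.33, Sh3gl2 (endophilin A1) at 0.22, and the clathrin adaptor subunit Ap2s1 at 0.23.

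For ribose, 36 release machinery genes gave 19 values higher in Ribose and 17 lower (median 0.01), and 31 vesicle membrane and endocytosis genes gave 16 higher and 15 lower (median 0.0048). None passed limma and 0 had an unadjusted p under 0.05, against 0.00724% and 4.79% of all genes. Among the genes with the smallest p were Doc2a, a calcium sensor of spontaneous release (0.70, at 1.05, 1.66 and 2.34 FPKM in Ribose, against 1.84, 0.0396 and 0.448 FPKM in Vehicle), Rab3d (-0.15) and Snap29 (-0.18) of the first list, and Cltb, a clathrin light chain (-0.13), and Itsn1, an endocytic scaffold (0.21), of the second. Only Cltb of these 5 did not overlap between the groups.

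Whether the AAV difference and the ribose difference of a gene were unequal was tested directly over all 12 libraries. None of the 34 genes passed (limma interaction over 12853 genes, 0 of 34, lowest adjusted p = 0.687), where 0.00778% of all genes passed, and 3 of 34 had an unadjusted p under 0.05, against 6.85% of all genes. The AAV difference minus the ribose difference was above 0 for 29 of 34 genes (median 0.12, against 0.05 over all genes, 58.6% of which were above 0). The smallest p belonged to Napa at 0.40, Syp at 0.33, Syt11 at 0.25 and Rab3a at 0.22 (limma adjusted p = 0.687, 0.690, 0.718 and 0.745). The balance of signs depended on the scaling, for the 34 genes and for all genes, but not to the same extent. At equal totals 23 of 34 were above 0 (67.6%, against 45.7% of all genes). After quantile normalization 15 of 34 were (44.1%, against 54.0% of all genes). Scaled to the pan-neuronal markers, 13 were above 0 (35.3% of all genes). Without Vehicle replicate 2, 23 of 34 were above 0 (55.1% of all genes) and 10 of 34 had an unadjusted p under 0.05 (10.9% of all genes), and 0 of 34 passed.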

How the data were processed

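Polyadenylated RNA of 12 libraries was made into directional libraries, per the labels' protocols. Per the submitters' processing notes, bcl2fastq 2.20, FastQC, Trim Galore and the GRCm38 build were used. Which aligner, counter, annotation and scaling followed is not given in the sources used here. FPKM were deposited by the authors, in 1 table per experiment; 13178 genes stood in the AAV table, none with a mean under 1 FPKM, and 21650 in the ribose table, and 0 columns were left unused. Gene identifiers were matched to GENCODE M21 (13170 and 21612 matched).

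Within each table, log2(FPKM + 1) was fitted for genes averaging 1 FPKM or more, with limma 3.58.1 (R 4.3.3, trend in the variance prior) and Benjamini-Hochberg adjustment at 0.05 over all genes; the fits were tested on simulated data. The pseudocount makes changes of low genes look smaller. All 34 genes passed the filter. Paralog ratios used two-sided exact permutation over 6 libraries, and the p-values given for single genes are from limma. The genes, lists and tests were chosen with earlier results of these data known. Given with every library were the 6 genes with the smallest p per experiment and 4 paralog sets; 3 genes per wider list and 4 for the difference were named by smallest p. A gene that this rule names in the ribose table is not reported here. Other genes were named after their values were seen. Alternatives were other pseudocounts (0.1, 0.5), filters (none, mean of 5 FPKM), scalings (equal totals, quantile, median-of-ratios), library weights, a robust prior, a replicate block and omission of each library. Promoter sequences are from RefSeq (GRCm38.p6), for 26 of 34 genes, with 13 motifs searched on both strands.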

Additional observations from a re-analysis of the deposited data

How the results depend on the processing

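With 3 libraries a group and no read counts, small differences cannot be told from noise here, and a gene that did not pass cannot be taken as equal. No alternative made any of the 34 genes pass. Omitting both replicates numbered 2 and scaling to the pan-neuronal markers were chosen after seeing the data. The lowest adjusted p of the 34 genes ranged from 0.244 to 0.727 in AAV-TKT, from 0.668 to 1 in Ribose and from 0.167 to 0.999 for the difference of the effects.

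For AAV-TKT, the median change was 0.0185 at equal totals, 0.0362 after quantile normalization and -0.044 on the pan-neuronal scale. It was 0.0596 to 0.119 with single libraries left out. Genes that did not overlap were 4 higher and 2 lower at equal totals (5.08% and 11.6% of all genes), 2 lower with median-of-ratios scaling (8.83%), 4 higher and 3 lower after quantile normalization (11.1% and 6.31%), 2 higher and 7 lower on the pan-neuronal scale (1.83% and 21.5%), and 17 higher and 2 lower without both replicates numbered 2 (25.2% and 17.3%; 36 genes of the table then passed). With single libraries left out they were 10 to 17 higher (14.3% to 19.6% of all genes) and 1 to 3 lower (10.8% to 12.5%). For Ribose, the median was 0.0386 after quantile normalization and -0.0713 to -0.0089 with single libraries left out. Genes that did not overlap were 0 lower at equal totals (4.26% of all genes), 1 higher and 1 lower after quantile normalization (4.22% and 5.34%), 1 lower on the pan-neuronal scale (3.90%), 3 higher and 7 lower without both replicates numbered 2 (17.0% and 20.6%), and 0 to 3 higher (6.74% to 10.4%) and 2 to 5 lower (8.38% to 12.9%) with single libraries left out.

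Some signs turned. In AAV-TKT, Vamp2 was at -0.046 at equal totals, -0.00094 with median-of-ratios scaling, -0.061 after quantile normalization, -0.11 on the pan-neuronal scale and -0.0084 with library weights. Sv2c was at -0.013, -2.7e-05 and -0.078 at equal totals, after quantile normalization and on the pan-neuronal scale, where Sv2a was at -0.056 and Sncb at -0.032. With single libraries left out, Sv2a ranged from -0.027 to 0.14 and Sncg from -0.16 to 0.062. In Ribose, quantile normalization gave 0.0096 for Vamp2 and 0.047 for Syt2. Library weights gave -0.082 for Vamp1, 0.0031 for Vamp2, -0.11 for Sv2b, 0.040 for Sncg and -0.083 for Sncb. Omitting both replicates numbered 2 gave -0.090 for Vamp1, -0.074 for Sv2b, 0.014 for Sncg and -0.068 for Sncb. With single Ribose or Vehicle libraries left out, Syt2 ranged from -0.41 to 0.24, Vamp1 from -0.22 to 0.26, Vamp2 from -0.19 to 0.10, Syt1 from -0.32 to 0.14, Sv2b from -0.24 to 0.26, Sncg from -0.22 to 0.15, Sncb from -0.13 to 0.14 and Sv2a from -0.026 to 0.17. The cause was not tested.

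Same-numbered libraries correlated in their deviations at 0.03, 0.07 and -0.01 in the AAV table and 0.04, 0.36 and 0.16 in the ribose table, so the numbers were not taken to pair libraries. With the replicate block, 0 of 34 genes passed in either experiment, and 8 had an unadjusted limma p under 0.05 in AAV-TKT, against 12.1% of all genes in that fit.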

Other observations

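The genes that separated the replicates of the ribose table were set beside the AAV experiment, which shares no library with it. For the 8 genes at which Ribose replicate 2 and Vehicle replicate 2 were both lowest (Syt2, Sv2b, Vamp1, Cplx1, Cplx2, Snap25, Bin1 and Syp), 8 of 8 had a value higher in AAV-TKT than in AAV-GFP, with a median log2 change of 0.23, and 6 of 8 did not overlap between the groups. Among the 2418 other genes with this order of ribose libraries, 56.7% had a value higher in AAV-TKT and 16.0% did not overlap on that side. For the 15 genes at which both replicates numbered 2 were highest, 9 were higher in AAV-TKT and 6 lower (median 0.02). Of these, 2 did not overlap on the higher side and 1 on the lower. Other genes with this order were higher in AAV-TKT for 51.5%, with 9.29% and 7.87% not overlapping on the higher and lower side. Of the 11 genes with neither order, 9 were higher in AAV-TKT and 2 lower (median 0.10), with 2 not overlapping on the higher side. Among other genes with neither order, 54.3% were higher and 10.6% did not overlap on that side. Of all 34 genes, 26 were higher in AAV-TKT and 10 did not overlap on that side. The other genes counted here were not matched to the 34 in level or cell type. The 34 genes were grouped after their values were seen, so no test is given.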
